A study of Mus musculus with 99 samples.

Results

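The genes described here are 8 transcription factors known for their part in the trophoblast, the outer lineage of the early embryo that builds the placenta: Cdx2, Eomes, Elf5, Tead4, Tfap2c, Tfap2a, Esx1 and Hand1. They are 8 of the 55341 gene names counted in each of 16 RNA-seq libraries. They were named as a list and chosen with results of these data known, by a rule that names no contrast. They were taken as chosen by the OHT effect in Parental cells, which is therefore given as a description with no test. Whether other contrasts also entered the choice is not known, so the tests below are not independent evidence that the list responds. Peaks of every ChIP-seq antibody were counted for each gene where they overlapped, by at least 1 bp, the annotated gene extended by 2.5 kb to both sides. ChIP-seq pulls down chromatin with an antibody to a protein or histone mark and sequences its DNA, and a peak is a region enriched over an input library.

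All cells were mouse embryonic stem cells (ESCs), which come from the inner cell mass and not from the trophoblast. Parental cells carry ROSA26::creERT2, are Ring1A−/− and Ring1B fl/fl, so that OHT (4-hydroxytamoxifen, 0.5 µM for 72 h) removes the last RING1 protein, and vehicle-treated cells (−OHT, ethanol) lack RING1A as well. RING1B WT and RING1B I53S cells are puromycin-selected clones of the same line that stably express FLAG-HA-tagged RING1B from a pCAG plasmid, either active or with a substitution to serine that the study uses as catalytically inactive. Eed fl/fl cells are another ROSA26::creERT2 line in which OHT deletes the PRC2 subunit EED. The study used 2 clones of it, and the labels do not say which clone each library came from. Parental, RING1B WT and RING1B I53S derivatives with MTF2 knocked out (MTF2 KO) were profiled by ChIP-seq only. RNA was counted in 2 libraries for each line and treatment, with 6957248 to 12743460 counted reads per library. ChIP-seq gave 69 peak lists with a group for 12 antibodies, with 1 library per antibody and condition except for MTF2 and JARID2 after 72 h of OHT in the transgenic lines, which have 2. The labels do not say that replicates were separate cultures, so p-values measure the spread between these libraries, which may be technical. Clone and transgene cannot be told apart.

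Cdx2, Eomes, Elf5, Tead4 and Tfap2c are known as factors that specify the trophectoderm or keep trophoblast stem cells dividing. Hand1 drives the formation of trophoblast giant cells, Esx1 is an X-linked homeobox gene of the placenta, and Tfap2a is an AP-2 factor related to Tfap2c that is also used in epidermis and neural crest. In ESCs many genes of other lineages are held silent by the Polycomb complexes PRC1 and PRC2. The RING1A or RING1B subunit of PRC1 attaches ubiquitin to histone H2A (H2AK119ub1). PRC2 methylates histone H3 (H3K27me3), a mark that canonical PRC1 can bind through CBX proteins. Polycomb complexes gather at promoters rich in CG dinucleotides.

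The sequences just upstream of the start sites of 3 of the genes are shown because the genes differ in how Polycomb peaks lie over them. Each runs 5′ to 3′ on the gene's strand over the 250 bases before a RefSeq start site (GRCm38.p6), with every CG in capitals. The Cdx2 sequence is chr5:147307250-147307499 on the minus strand, the Esx1 sequence chrX:137120327-137120576 on the minus strand, and the Elf5 sequence chr2:103423818-103424067 on the plus strand. The Esx1 and Elf5 sequences each lie upstream of an inner start site, inside the annotated span of their gene. The 5′ end of the annotated Esx1 gene is at 137122083.
Cdx2: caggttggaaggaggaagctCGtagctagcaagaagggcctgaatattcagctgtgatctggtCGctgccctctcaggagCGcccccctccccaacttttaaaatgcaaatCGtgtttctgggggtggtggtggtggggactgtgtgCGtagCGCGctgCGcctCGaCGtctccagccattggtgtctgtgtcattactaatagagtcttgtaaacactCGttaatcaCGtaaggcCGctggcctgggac
Esx1: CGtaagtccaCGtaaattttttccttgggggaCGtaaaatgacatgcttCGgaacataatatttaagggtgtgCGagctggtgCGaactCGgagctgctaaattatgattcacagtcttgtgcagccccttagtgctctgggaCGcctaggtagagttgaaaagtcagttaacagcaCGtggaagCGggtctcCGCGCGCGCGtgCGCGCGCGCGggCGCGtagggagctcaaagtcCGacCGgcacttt
Elf5: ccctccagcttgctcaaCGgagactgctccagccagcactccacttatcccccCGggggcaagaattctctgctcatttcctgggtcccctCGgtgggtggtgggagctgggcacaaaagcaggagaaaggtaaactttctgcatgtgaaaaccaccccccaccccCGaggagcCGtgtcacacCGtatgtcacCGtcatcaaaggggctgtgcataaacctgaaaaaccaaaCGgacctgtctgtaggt
The Esx1 sequence holds 24 CG, a number that 12% of the 32851 RefSeq promoters of the same length reach. The Cdx2 sequence holds 13 CG, reached by 31.5%, and the Elf5 sequence 8, reached by 43.0%, against a median of 6 over all promoters. The sequence before the other Elf5 start site in the table (chr2:103411848-103412097) holds 2 CG, which 81.2% reach, so of these start sites the printed one is the richer in CG. Sequences of 5 of the 8 genes were matched. All 250 bases of the Cdx2 and Esx1 sequences lay within a RING1B peak of Parental cells without OHT and within one of RING1B WT cells with OHT, and none of the bases of either Elf5 sequence did. In the H2AK119ub1 list of Parental cells without OHT, 250 of the Cdx2 bases lay within a peak and 0 of the Esx1 bases.

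As a check of the lines, Rnf2, the gene of RING1B, had 198 and 257 CPM in the Parental libraries without OHT and 144 and 167 with OHT (CPM, the reads of a gene relative to all reads counted in its library, scaled by TMM). Counts over the whole gene do not show which exons were read, so they do not check the deletion, and transgene and endogenous reads of mouse RING1B cannot be told apart. Ring1, the gene of RING1A, had 1.03 to 4.02 CPM in the 12 libraries of the RING1B lines. Eed fell from 255 and 173 CPM to 67.1 and 43.7 with OHT in Eed fl/fl cells, a log2 fold change of −1.95 (SE 0.315) with an adjusted p of 0.0766, so this decrease did not pass the test over all genes. Summed CPM of 10 pluripotency markers, which define ESCs, was between 1877 and 5496 in all 12 libraries of the RING1B lines, with 0 markers at 0.

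**Figure D1:**
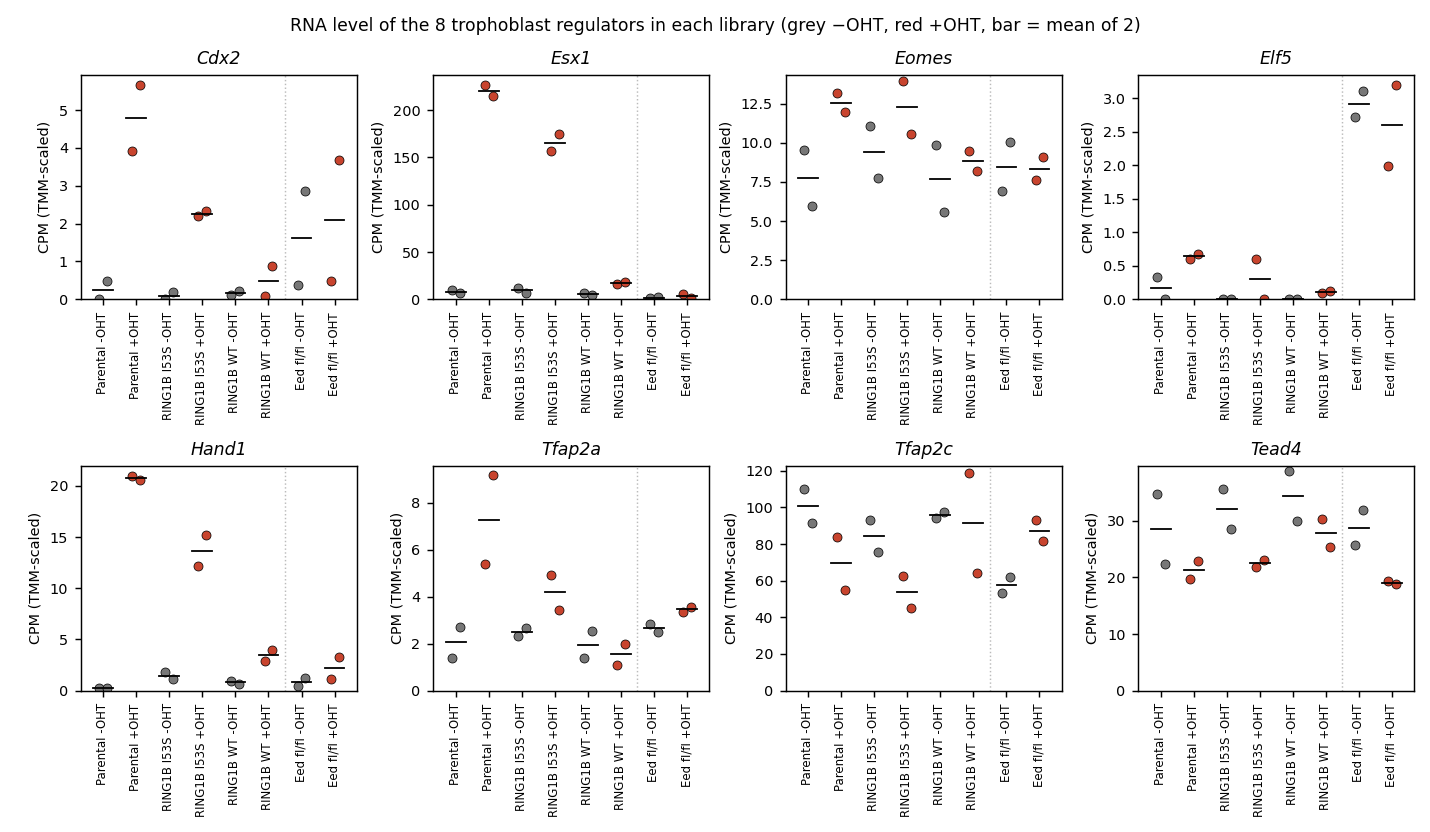
RNA level (CPM, TMM-scaled, each panel with its own linear axis from 0) of the 8 genes in each of the 16 libraries, by line and treatment (grey, −OHT; red, +OHT), with a bar at the mean of 2. Esx1, Hand1 and Cdx2 were higher in both OHT libraries of Parental and RING1B I53S cells than in any library of those lines without OHT, whereas Tfap2c lay between 45.1 and 118.96 CPM and Tead4 between 18.8 and 38.7 CPM over all libraries.

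Without OHT the genes differed widely in level. On the scale of CPM per kb of exon, the mean of the 2 Parental libraries was 27.4 for Tfap2c, 7.94 for Tead4, 4.07 for Esx1, 1.86 for Eomes, 0.419 for Tfap2a, 0.123 for Hand1, 0.109 for Cdx2 and 0.0277 for Elf5. Libraries of neighbours in this order did not overlap down to Hand1, whereas those of Hand1, Cdx2 and Elf5 overlapped with the next in order. With OHT, Esx1 moved to the top of the order, with 111 CPM per kb in Parental cells and 83.5 in RING1B I53S cells. In RING1B I53S cells with OHT it was followed by Tfap2c (14.6), Hand1 (6.83), Tead4 (6.24), Eomes (2.95), Cdx2 (1.00), Tfap2a (0.852) and Elf5 (0.0512), and the libraries of Hand1 and Tead4, and those of Cdx2 and Tfap2a, overlapped.

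The first comparison asked what the loss of endogenous RING1B did to these genes when the catalytically inactive RING1B I53S was all that remained. Cdx2, Esx1 and Hand1 rose, and Tfap2a, Eomes, Tfap2c and Tead4 did not pass the test. Of the 8 genes, 7 passed the filter on low counts in the fit of 12 libraries, and Elf5 did not. Calls needed a log2 fold change of 1.5 or more in either direction and an adjusted p under 0.05 over 18154 genes. By this rule 3 of the 7 were called higher and 0 lower, against 12.8% of all genes tested called higher and 1.04% called lower. The median log2 fold change of the 7 was 0.74, beside 0.01 over all genes tested. At an unadjusted p under 0.05 in edgeR stood 5 of the 7, and 6844 of the 18154 genes tested. These are bulk samples, in which more cells of a type and more RNA per cell cannot be told apart.

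Esx1 had 11.9 and 7.003 CPM in the RING1B I53S libraries without OHT and 156 and 175 with OHT. The groups were far apart, with a log2 fold change of 4.12 (SE 0.259, adjusted p = 7.72e-09). In Parental cells Esx1 went from 9.61 and 6.55 CPM to 226 and 215, a log2 fold change of 4.75 (SE 0.269).

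In RING1B I53S cells Hand1 had 1.78 and 1.15 CPM without OHT, and 12.1 and 15.2 after it. The groups did not overlap, and the log2 fold change was 3.19 (SE 0.351, adjusted p = 2.72e-06). The Parental libraries started lower, at 0.244 and 0.247 CPM, and reached 20.9 and 20.6, a log2 fold change of 6.33 (SE 0.462), which rests on 5 counts over both libraries without OHT.

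Cdx2, the homeobox factor that sets up the trophectoderm, had 0 and 0.192 CPM in RING1B I53S cells without OHT and 2.21 and 2.32 with OHT. Its log2 fold change was 4.53 (SE 1.05, adjusted p = 0.00297). The libraries without OHT held 2 counts in all and those with OHT 49, so the ratio per depth was 26.5, with an exact 95% interval of 6.96 to 225 that covers counting error only. Without −OHT replicate 2, which holds both counts, the log2 fold change became 7.55, and without replicate 1 it became 3.47 (adjusted p = 0.0385). In Parental cells Cdx2 went from 0 and 0.494 CPM to 3.93 and 5.65, a log2 fold change of 4.46 (SE 0.913) on 4 and 104 counts, which became 8.64 without −OHT replicate 2 and 3.21 without replicate 1.

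The AP-2 factors differed in the direction of their values. In RING1B I53S cells Tfap2a had 2.32 and 2.69 CPM without OHT and 4.91 and 3.44 after it, groups that did not overlap, with a log2 fold change of 0.74 (SE 0.458, adjusted p = 0.254). In Parental cells it went from 1.39 and 2.72 to 5.38 and 9.16 CPM, a log2 fold change of 1.86 (SE 0.467) that became 1.38 without −OHT replicate 1. Tfap2c in RING1B I53S cells had 93.1 and 75.8 CPM without OHT and 62.6 and 45.1 with OHT, groups that did not overlap. Its log2 fold change was −0.65 (SE 0.260, adjusted p = 0.0701) and lay between −0.90 and −0.45 over all alternatives. The annotated span of Tfap2a overlaps 3 genes on the other strand. Reads were counted over exons without strand. Whether exons overlap was not checked, so an effect on its counts is not known.

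Eomes, a T-box factor of trophoblast stem cells and of mesendoderm, had 11.05 and 7.77 CPM in RING1B I53S cells without OHT. With OHT it had 13.9 and 10.6, groups that overlapped (log2 fold change 0.37, SE 0.315, adjusted p = 0.414). Tead4, the DNA-binding partner of YAP that acts upstream of Cdx2, had 35.7 and 28.5 CPM in RING1B I53S cells without OHT. With OHT it had 21.8 and 23.2, groups that did not overlap (log2 fold change −0.52, SE 0.239, adjusted p = 0.119). The annotated spans of Eomes and Tead4 each overlap 1 gene on the other strand, with the same limit on their counts. Elf5, an ETS factor that marks committed trophoblast, had 0 counts in both RING1B I53S libraries without OHT and 6 and 0 with OHT. Set against a floor of 3 counts over the group the ratio per depth of Elf5 was 2.17, which is not a lower limit. Its exact 95% interval, which covers counting error only, starts at 1.27, and all 6 counts came from a single library. In Parental cells Elf5 had 4 counts without OHT and 14 with OHT, a ratio per depth of 3.24, with all 4 counts in a single library.

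In Parental cells, the contrast taken as the one behind the choice of genes, 4 of 7 had a log2 fold change of at least 1.5, beside 15.1% of all genes called higher, and nothing is read from that count. Tfap2a at 1.86 was the nearest above this limit and Eomes at 0.68 the nearest below it, at some distance, and Tfap2c and Tead4 had −0.54 and −0.43.

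**Figure D2:**
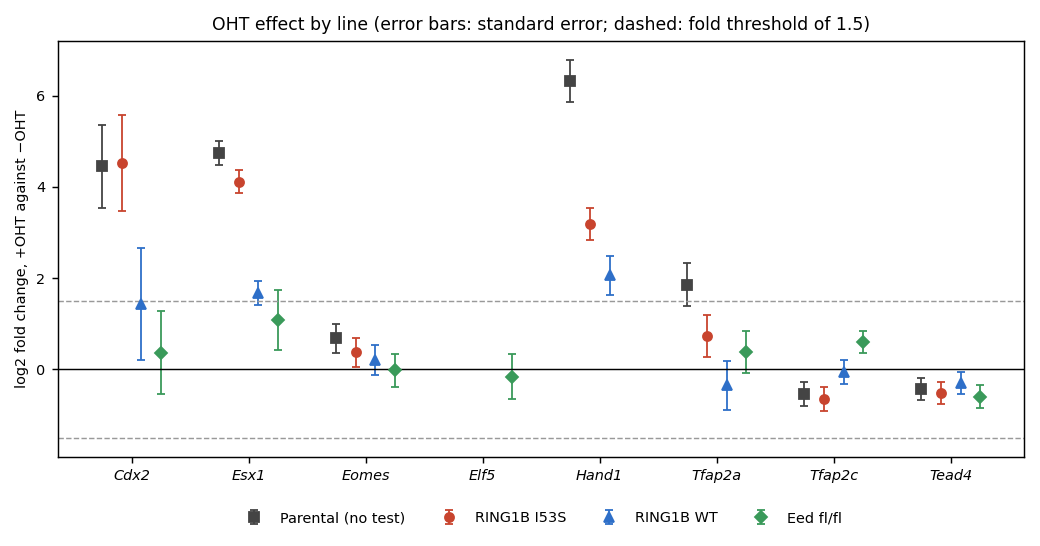
Log2 fold change of each gene with OHT against without OHT in each line (n = 2 libraries per group). Bars show the standard error derived from the edgeR fit, and dashed lines stand at 1.5 on either side of 0. Esx1 and Hand1 lie above the upper line in Parental, RING1B I53S and RING1B WT cells, Cdx2 in Parental and RING1B I53S cells, Tfap2a in Parental cells, and none of the 7 genes fitted in Eed fl/fl cells.

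The same treatment was followed in RING1B WT cells, which express active RING1B. The cause of changes in this line was not tested. Esx1 and Hand1 rose here too, and the other genes did not pass the test. By the same rule 2 of 7 genes were called higher and 0 lower, against 1.34% of all genes called higher. Esx1 had 6.42 and 4.50 CPM without OHT and 16.5 and 18.4 with OHT (log2 fold change 1.67, SE 0.271, adjusted p = 0.00277). Hand1 had 0.963 and 0.658 CPM without OHT and 2.92 and 3.99 with OHT (log2 fold change 2.06, SE 0.429, adjusted p = 0.0145). Neither pair of groups overlapped. Both calls were lost without −OHT replicate 2, which gave 1.44 for Esx1 (adjusted p = 0.0837) and 1.82 for Hand1 (adjusted p = 0.197), and without +OHT replicate 2, which gave 1.59 (adjusted p = 0.0572) and 1.82 (adjusted p = 0.172).

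Cdx2 had 0.107 and 0.219 CPM in RING1B WT cells without OHT and 0.101 and 0.872 with OHT, so the groups overlapped. On 3 and 8 counts the ratio was 2.74, with an exact 95% interval of 0.658 to 16.04. Tfap2a had 1.39 and 2.52 CPM without OHT and 1.11 and 1.99 with OHT, and Eomes 9.84 and 5.59 without and 9.46 and 8.22 with OHT. Both pairs overlapped, as did those of Tfap2c (94.3 and 97.5 without, 118.96 and 64.4 with OHT) and Tead4 (38.7 and 29.9 without, 30.3 and 25.4 with OHT). Elf5 had 0 counts without OHT and 2 with OHT.

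A direct comparison of the mutant with the active protein, both with OHT, shares no library with the Parental contrast. Esx1 was higher in RING1B I53S cells by 3.25 on the log2 scale (SE 0.248, adjusted p = 1.80e-07) and Hand1 by 1.99 (SE 0.327, adjusted p = 0.000659), so 2 of 7 genes were called higher, against 6.02% of all genes. Cdx2 had a log2 difference of 2.28 (SE 0.848, adjusted p = 0.0807). Its call depended on the method: with no filter on low counts it passed (2.30, adjusted p = 0.0126), and over all alternatives the adjusted p lay between 0.0126 and 0.436. Leaving out a RING1B WT library with OHT moved it to 1.36 (without replicate 1) or 4.33 (without replicate 2). Tfap2a had 1.44 (SE 0.497, adjusted p = 0.0593) and Tfap2c −0.77 (SE 0.261, adjusted p = 0.0556), and neither passed the test. Over all alternatives Tfap2c lay between −1.15 and −0.27. At an unadjusted p under 0.05 in edgeR stood 5 of the 7 genes, and 5201 of the 18154 tested. With at least 10 counts asked of every library Tfap2a passed at 1.52 (adjusted p = 0.0437), within a range of 0.0292 to 0.348 over all alternatives. Eomes and Tead4 had 0.47 and −0.31. Before OHT the clones were closer: 0 of 7 genes were called in edgeR or DESeq2, with 1 of 7 at an unadjusted p under 0.05 in edgeR (Esx1, log2 difference 0.80, adjusted p = 0.633), and 0.011% of all genes were called higher.

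The difference between the OHT effects of the 2 lines was tested as an interaction. For Esx1 the effect in RING1B I53S cells exceeded that in RING1B WT cells by 2.45 on the log2 scale (SE 0.366, adjusted p = 0.00337), the single gene of 7 called, against 0.209% of all genes called higher. The call was lost without RING1B WT −OHT replicate 1 (2.16, adjusted p = 0.0548) and without RING1B WT +OHT replicate 1 (2.36, adjusted p = 0.0508). For Cdx2 the difference was 3.10 (SE 1.86, adjusted p = 0.693), for Hand1 1.13 (SE 0.583, adjusted p = 0.59) and for Tfap2a 1.09 (SE 0.702, adjusted p = 0.733), so a larger effect in the mutant was not shown for these.

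Loss of PRC2 was followed in Eed fl/fl cells, fitted apart over 25170 genes. No gene was called: 0 of 7 in edgeR, DESeq2 and limma, with 2 of 7 at an unadjusted p under 0.05 in edgeR, against 0.00795% of all genes called higher. Hand1 did not pass the filter, with 0.494 and 1.195 CPM without OHT and 1.12 and 3.31 with OHT. Tfap2c had 53.4 and 61.8 CPM without OHT and 92.9 and 81.9 with OHT (log2 fold change 0.60, SE 0.244, adjusted p = 0.833), and Tead4 25.7 and 31.9 without and 19.3 and 18.8 with OHT (log2 fold change −0.60, SE 0.249, adjusted p = 0.833). These were the genes at an unadjusted p under 0.05, and their groups did not overlap.

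Cdx2 split the Eed fl/fl libraries by replicate number, with 0.370 CPM without OHT and 0.498 with OHT in replicate 1, and 2.87 and 3.68 in replicate 2 (log2 fold change 0.36, SE 0.908, adjusted p = 0.954). Esx1 stayed low, at 0.987 and 2.27 CPM without OHT and 5.35 and 1.60 with OHT, groups that overlapped (log2 fold change 1.08, SE 0.655, adjusted p = 0.833). Elf5 had more counts than in the RING1B lines, with 2.71 and 3.11 CPM without OHT and 1.99 and 3.19 with OHT. Eomes (6.91 and 10.0 without, 7.59 and 9.08 with OHT) and Tfap2a (2.84 and 2.51 without, 3.36 and 3.56 with OHT) had log2 fold changes of −0.02 and 0.37. The 2 fits were made apart, so levels of the Eed fl/fl line were not tested against the others.

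Other trophoblast genes moved alongside in RING1B I53S cells, and so did genes of other lineages. The counts below stand beside 12.8% of all genes tested called higher in this contrast. Of 18 further genes of trophoblast stem cells and their lineage, 11 were called higher and 0 lower with OHT, with a median log2 fold change of 1.81. Among them were Gata3 (5.46), a GATA factor of the trophectoderm, Dlx3 (4.43), a placental homeobox gene, and Id2 (3.84), an inhibitor of basic helix-loop-helix factors, and also Fgfr2 (3.54), the FGF receptor of trophoblast stem cells, whose annotated span overlaps 69 other genes. Of 16 genes of trophoblast differentiation, 7 could be tested and 5 were called higher, among them Wnt7b (4.43), Cdkn1c (3.72), Gcm1 (3.26), the factor of syncytiotrophoblast formation, and Ascl2 (1.69). The placental hormone and giant cell genes Prl3d1, Prl3b1, Prl2c2, Ctsq, Hsd3b6 and the syncytin gene Synb were at 0 in all 4 RING1B I53S libraries.

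All 8 primitive endoderm markers were called higher, with a median log2 fold change of 3.28, and so were 6 of 9 mesoderm markers (median 2.65) and 3 of 7 epidermis and neural crest markers (median 2.05, with 1 lower). Of all genes tested 12.8% were called higher and 1.04% lower. Sox17 rose by 3.39, Msx1 by 5.27, Kdr by 4.50, Pax3 by 4.15 and Sox10 by 2.05, and Foxd3 fell by 2.08, on the log2 scale. Sox7, Foxa2, Foxf1, Hand2 and Krt5 had 0 counts in both libraries without OHT and 30 and 37, 21 and 14, 65 and 64, 25 and 25, and 8 and 5 counts in those with OHT. Of 10 pluripotency markers 2 were called lower and 0 higher, Zfp42 with −1.78 and Klf2 with −1.54. The annotated spans of Gata3, Wnt7b, Cdkn1c, Sox17, Hand2, Krt5, Rnf2 and Eed overlap genes on the other strand. Whether their exons overlap was not checked, so an effect on their counts is not known.

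Summed over its list, the level in RING1B I53S cells went from 308 and 224 to 870 and 947 CPM for the further trophoblast genes, from 132 and 131 to 297 and 311 for the differentiation genes, and from 17.1 and 12.7 to 128 and 137 for primitive endoderm. It went from 9.66 and 5.95 to 45.0 and 44.6 for mesoderm, from 15.8 and 13.0 to 44.4 and 48.9 for epidermis and neural crest, and from 4095 and 4733 to 2420 and 2210 for pluripotency. Of the differentiation genes, 6 to 8 of 16 were at 0 in these libraries. Most of their sum came from Phlda2 (mean CPM 94.6 before and 172 after OHT) and Peg10 (24.8 before and 71.0 after). Among the further trophoblast genes, Id2 (236, from 16.4) and Krt18 (134, from 44.5) had the highest means after OHT. A sum thus follows its most abundant genes and is not a level of the whole list. The part of other cell types in the change of Cdx2, Esx1 and Hand1 was not tested. In RING1B WT cells with OHT, 5 of 18 further trophoblast genes and 0 of 7 tested differentiation genes were called higher, with 0 of 8 endoderm, 0 of 9 mesoderm and 1 of 7 epidermis and neural crest markers, against 1.34% of all genes tested. At an unadjusted p under 0.05 in edgeR stood 1 of the 7 differentiation, 3 of the 8 endoderm and 5 of the 9 mesoderm genes. With OHT in both lines, RING1B I53S was called higher than RING1B WT for 6 of 18, 3 of 7, 6 of 8, 4 of 9 and 1 of 7 genes of these lists, against 6.02% of all genes tested. In Eed fl/fl cells 0 genes of any of these lists were called by edgeR, with 9 of the 18 further trophoblast genes at an unadjusted p under 0.05.

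The genes whose pattern over the 12 libraries of the RING1B lines came nearest to Cdx2 were Serf1 and Hs3st1, with a root mean square difference of log2 CPM (each gene centred on its mean) of 0.449 and 0.456. For Esx1 they were Wt1 (0.328), the Wilms tumour factor, and Car4 (0.349), a carbonic anhydrase, among 18154 genes.

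ChIP-seq lists were then read at the 8 genes, with 1 library per condition and no test. The score is the −log10 p-value of a peak, at least 10 in every list, and the depth behind it is unknown, so scores are not compared between libraries. As background, the share of 21911 protein-coding genes with a peak by the same overlap is given beside each count.

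**Figure D3:**
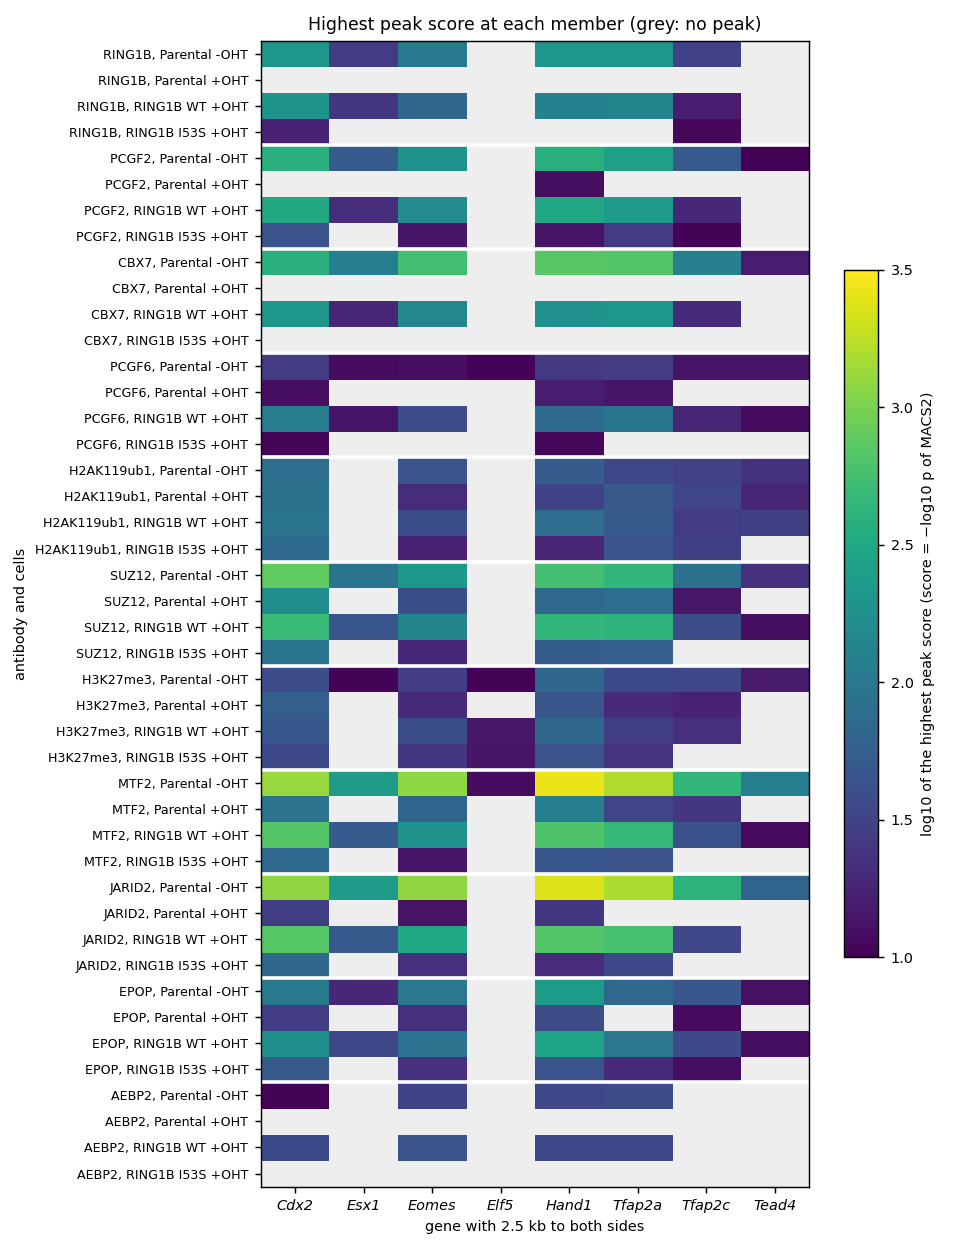
Highest peak score (log10 of the −log10 p-value of MACS2, colour) within 2.5 kb of each gene, for each antibody (rows) in 4 conditions (Parental cells without and with OHT, and both transgenic lines after OHT). Grey cells have no peak, as for RING1B at all 8 genes in Parental cells with OHT and at Elf5 for all antibodies other than H3K27me3, MTF2 and PCGF6.

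RING1B peaks lay at 6 of the 8 genes in Parental cells without OHT (19.5% of coding genes), all except Elf5 and Tead4. With OHT the count was 0 (2.36%) in Parental cells, 6 (15.0%) in RING1B WT cells and 2 (4.21%) in RING1B I53S cells. In Parental cells without OHT the highest scores were 212 at Cdx2 (chr5:147303763-147307982), 211 at Tfap2a (chr13:40727724-40740239) and 206 at Hand1 (chr11:57826912-57834159), each peak reaching over a start site. The Tfap2a peak was 12516 bp long. The Esx1 peak (chrX:137118362-137121748) scored 26.9 and was 3387 bp long, and it held the whole printed Esx1 sequence, which lies at an inner start site. The peaks found with RING1B I53S were short, 1147 bp at Cdx2 with a score of 17.7 and 644 bp at Tfap2c with a score of 11.2, and neither overlapped a start site.

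H2AK119ub1 peaks were found at the same number of genes, 6, in Parental cells without OHT (26.3%), in Parental cells with OHT (22.4%) and in RING1B WT cells with OHT (31.4%), and at 5 in RING1B I53S cells with OHT (12.8%). The study added Drosophila chromatin to its histone ChIPs as a reference for scaling. From its own signal it reported complete loss of H2AK119ub1 at PRC1 targets with RING1B I53S. It describes this scaling for signal tracks and not for peak calling, so a peak after OHT does not show that the mark was kept. The lists differ in length as wholes: they cover 23286712 bp in Parental cells without OHT, 7946309 bp with OHT, 33826282 bp with RING1B WT and 4382526 bp with RING1B I53S, so lengths at single genes are given as values and not read as a change at these genes. At Cdx2 the peaks covered 10859 bp of the window in Parental cells without OHT, 4908 bp with OHT, 9856 bp with RING1B WT and 3689 bp with RING1B I53S. At Tfap2a they covered 11582, 7394, 12485 and 6849 bp in the same order, and at Hand1 8526, 6906, 7968 and 4751 bp. The values were 4137, 4713, 7335 and 2892 bp for Eomes, 4744, 4731, 4812 and 2217 bp for Tfap2c, and 2980, 2476, 4101 and 0 bp for Tead4. The shortest coverage at each of these genes was in the RING1B I53S list, which is also the shortest list.

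Esx1 and Elf5 had no H2AK119ub1 peak in any of the 4 lists. The nearest one to an Esx1 start site was 2483846 bp away in Parental cells without OHT and 14269 bp away in RING1B WT cells with OHT. Esx1 thus held RING1B peaks in both of these conditions with no H2AK119ub1 peak within 2.5 kb, whereas the other 5 genes with RING1B peaks had both. A list holds only regions past its threshold, so no peak does not show that the mark was absent.

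**Figure D4:**
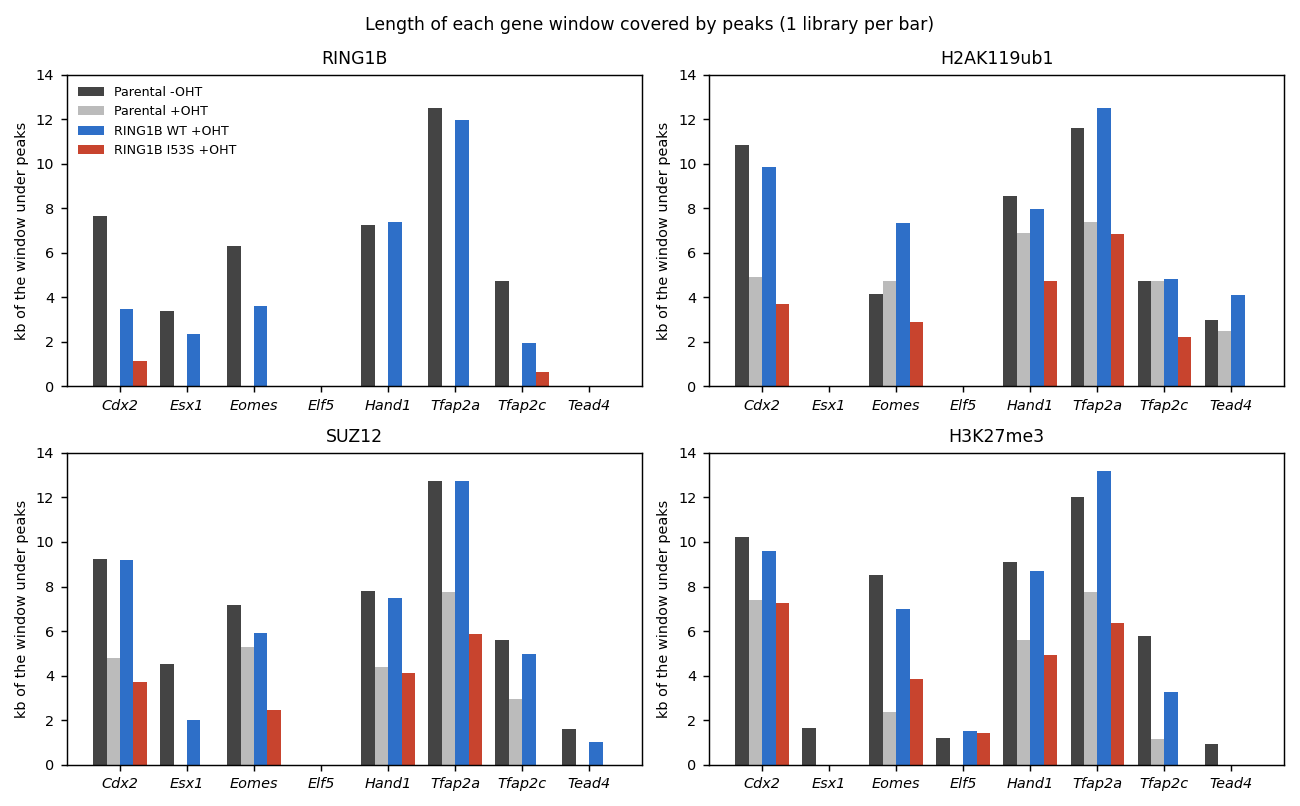
Length of each gene's window under peaks (kb, linear axis from 0) for RING1B, H2AK119ub1, H3K27me3 and SUZ12, with 1 library per bar and no error bars. H2AK119ub1 at Cdx2 covers 10859 bp in Parental cells without OHT and 3689 bp in RING1B I53S cells with OHT, and Esx1 has no H2AK119ub1 bar.

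PCGF2 and CBX7 are subunits of canonical PRC1. CBX7 peaks lay at 7 genes in Parental cells without OHT (18.9%), 0 with OHT (0.278%), 6 in RING1B WT cells with OHT (9.96%) and 0 in RING1B I53S cells with OHT (0.169%). PCGF2 peaks lay at 7 (18.7%), 1 (0.333%), 6 (13.9%) and 5 (2.59%) in the same order. The PCGF2 peaks found with RING1B I53S were at Cdx2, Eomes, Hand1, Tfap2a and Tfap2c, with scores of 44.1 at Cdx2 and 10.6 to 26.9 at the others, and they covered 667 to 3739 bp. With scores of 20 or more counted alone, 2 of these 5 genes had one.

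PCGF6, a subunit of the variant complex PRC1.6, had peaks at 8 genes in Parental cells without OHT (30.3%), 3 with OHT (21.1%), 7 in RING1B WT cells with OHT (28.5%) and 2 in RING1B I53S cells with OHT (11%). Many of these peaks were weak, and with scores of 20 or more the counts became 3, 0, 4 and 0. The PCGF6 peak of Elf5 in Parental cells without OHT lay 6738 bp from a start site, and that of Tead4 47566 bp. RYBP, shared by variant PRC1 complexes, had peaks at 5 genes in Parental cells without OHT (13.0%) and, with OHT, at 2 in RING1B WT cells (5.37%) and 2 in RING1B I53S cells (3.68%), none of which scored 20 or more.

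SUZ12, a core subunit of PRC2, had peaks at 7 genes in Parental cells without OHT (31.3%), 5 with OHT (23.0%), 7 in RING1B WT cells with OHT (26.1%) and 4 in RING1B I53S cells with OHT (14.4%). The 4 were Cdx2, Eomes, Hand1 and Tfap2a. At Cdx2 the SUZ12 peak covered 9243, 4790, 9202 and 3726 bp in the same order, in lists that cover 18138855, 8048008, 13016255 and 4224721 bp. H3K27me3 peaks lay at 8 genes (30.6%), 5 (25.6%), 6 (30.5%) and 5 (24.1%). With scores of 20 or more counted alone these H3K27me3 counts became 5 in Parental cells without OHT and 3 with OHT. Esx1 held an H3K27me3 peak in Parental cells without OHT, with a score of 10.51, and none in the other 3 lists.

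Among the accessory subunits of PRC2, AEBP2 and JARID2 mark PRC2.2, and EPOP and MTF2 mark PRC2.1. AEBP2 peaks lay at 4 genes in Parental cells without OHT (4.61%), 0 with OHT (0.0685%), 4 in RING1B WT cells with OHT (4.92%) and 0 in RING1B I53S cells with OHT (0.132%). JARID2 peaks lay at 7 (34.8%) and 3 (5.62%) in Parental cells, at 6 in both RING1B WT libraries (20.3% and 20.0%) and at 4 and 2 in the RING1B I53S libraries (4.34% and 1.8%). EPOP peaks lay at 7 (26.2%), 4 (11.6%), 7 (26.4%) and 5 (12.6%). MTF2 peaks lay at 8 (54.7%) and 5 (27.6%) in Parental cells, at 7 in both RING1B WT libraries (30.4% and 27.6%) and at 4 and 5 in the RING1B I53S libraries (12.6% and 28.1%).

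MTF2 and JARID2 were also profiled after a shorter treatment of 48 h, a time taken from the sample titles. In Parental and RING1B I53S cells more of the genes held MTF2 peaks then than after 72 h. The share of all coding genes with a peak was also larger, so the counts are not read as particular to these genes. At 48 h MTF2 peaks lay at 6 genes in Parental (31.6%), 7 in RING1B WT (33.5%) and 7 in RING1B I53S cells (32.7%), and JARID2 peaks at 4 (11.9%), 6 (19.9%) and 4 (4.22%). Before OHT the counts were 7 for both proteins in RING1B WT cells (40.0% for MTF2, 23.7% for JARID2), and 7 for MTF2 (36.2%) and 6 for JARID2 (21.7%) in RING1B I53S cells. Esx1 held an MTF2 peak in RING1B I53S cells without OHT and, with a score of 10.1, after 48 h, and none in either library after 72 h.

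**Figure D5:**
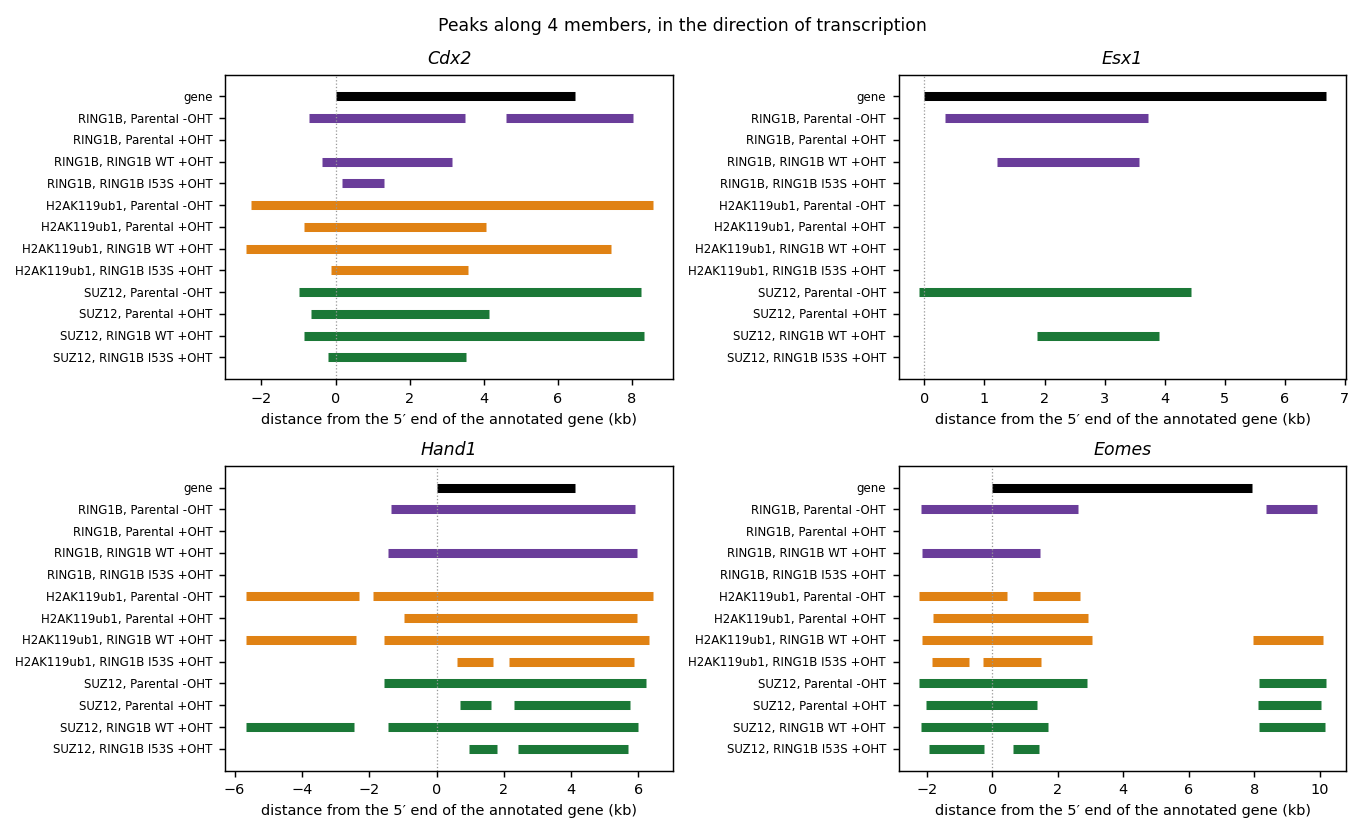
Peaks (bars) of each antibody and condition along 4 of the genes, drawn in the direction of transcription by distance from the annotated 5′ end in kb. At Cdx2 and Hand1 the bars of RING1B, H2AK119ub1 and SUZ12 cover less in RING1B I53S cells with OHT than in RING1B WT cells with OHT, and at Hand1 there is no RING1B bar with RING1B I53S.

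In MTF2 KO cells fewer of the genes held SUZ12 or H3K27me3 peaks than in the matching cells with MTF2, and the share of all coding genes was smaller too. SUZ12 peaks lay at 5 genes in Parental MTF2 KO cells without OHT (12.2%) and in RING1B WT MTF2 KO cells with OHT (13.6%), at 1 with OHT in Parental MTF2 KO cells (5.52%), which was Hand1, and at 0 in RING1B I53S MTF2 KO cells with OHT (2.13%). H3K27me3 peaks lay at 3 (13.8%) and 0 (1.04%) genes in Parental MTF2 KO cells without and with OHT, at 4 in RING1B WT MTF2 KO cells (8.37%) and at 1 in RING1B I53S MTF2 KO cells (4.19%) with OHT, which was Elf5. With scores of 20 or more the SUZ12 count in Parental MTF2 KO cells with OHT became 0, and the H3K27me3 counts became 1, 0, 1 and 0. The 4 input libraries had 0 peaks at any of the genes.

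Over the 69 lists the genes differed in how often they held a peak of any antibody. Hand1 held a peak in 60, Cdx2 in 58, Tfap2a in 53, Eomes in 52, Tfap2c in 43, Esx1 in 26, Tead4 in 22 and Elf5 in 6. With OHT in RING1B I53S cells the log2 fold change was 3.19 for Hand1, 4.53 for Cdx2, 0.37 for Eomes and 4.12 for Esx1. Tfap2a, Tfap2c and Tead4 were not called, and Elf5 was not tested. The lists mix antibodies, lines and treatments, and the gene windows differ in length, so no relation of peaks to RNA is read from them. In RING1B I53S cells with OHT, Eomes held H2AK119ub1, H3K27me3 and SUZ12 peaks, as Cdx2 and Hand1 did, and Esx1 held none of the 3. These marks were not profiled in RING1B I53S cells without OHT, so this does not show what changed in that line.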

How the data were processed

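RNA-seq and ChIP-seq files of mouse ESCs were analysed for 8 trophoblast regulators. The authors aligned RNA reads to mm10 with STAR 2.7, removed duplicates, counted reads per GENCODE M21 gene name with featureCounts without strand and deposited raw counts for 16 libraries. ChIP-seq reads were aligned with Bowtie 1.2.2 and peaks were called by the authors in each library with MACS2 2.1.1, and the deposited peak score is the −log10 of the p-value. The authors' 7 comparison tables (log2 fold changes and p-values from DESeq2) and 2 normalized tables were not used.

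The count analysis used edgeR 4.0.16 (R 4.3.3): TMM scaling, filterByExpr and a quasi-likelihood fit of the 12 libraries of the RING1B lines with group means, the 4 Eed fl/fl libraries apart, and Benjamini-Hochberg adjustment over all genes tested. Depth was 6957248 to 12743460 counts per library (median 9749125.5), and edgeR's coefficient of biological variation, 0.181 for the RING1B lines and 0.251 for Eed fl/fl, limits what 2 libraries per group can show. Replicates differed by more than sampling noise (chi-square per degree of freedom 6.48 to 25.7). Standard errors are the absolute log2 fold change divided by the square root of the edgeR F statistic. They thus rest on the spread estimated in the whole fit, also for Parental cells, where no p-value is given. Fold changes against 0 counts use a floor of 3 counts over the group. Exact 95% intervals of ratios cover counting error only. Peaks were read in Python 3.11.15 with pandas 2.3.3, and CG dinucleotides were counted in RefSeq promoter sequences.

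The genes, the lists and the tests were chosen with earlier results of these data known. Named genes are the 8 members and, of each other list, up to 4 genes called in RING1B I53S cells with the largest fold changes. Also named are the 2 genes nearest in pattern to Cdx2 and Esx1, the deleted genes and some abundant genes of the trophoblast sums. Of the primitive endoderm list 1 named gene is left out. Alternatives were DESeq2 1.42.0, RLE scaling, other filters and thresholds, a fit of the compared groups alone, a replicate block, each library left out, limma 3.58.1 for Eed fl/fl, and other windows and scores for peaks. The edgeR steps were tested on simulated data. A peak list whose label gives no treatment was kept out of all groups.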

Additional observations from a re-analysis of the deposited data

Results flagged for a closer look

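Esx1 stood out because its OHT effect differed between lines by a direct test. The effect in RING1B I53S cells exceeded that in RING1B WT cells by 2.45 on the log2 scale (SE 0.366, edgeR adjusted p = 0.00337), with 4.12 in RING1B I53S and 1.67 in RING1B WT cells, and both libraries of each line with OHT were above both without. Over 14 alternatives the difference lay between 2.12 and 2.88, with adjusted p from 1.37e-08 to 0.0548.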

How the results depend on the processing

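Of 518 values of single genes under alternatives, 488 kept their direction and side of the threshold, 7 lost a call, 3 gained one and 20, of genes not called, changed sign. Of the 488, 42 values with no fold threshold and 42 with a log2 limit of 1 came from the main fit. Their direction could not differ. Of 345 peak counts, 319 stayed within 1.5 times and 26 did not, most of them with scores of 20 or more. With at least 10 counts in every library 2 genes had a log2 fold change of 1.5 in Parental cells, 1 was called in RING1B I53S and 1 in RING1B WT cells, since low genes then leave the test, and 1 was called in RING1B WT cells with the compared groups fitted alone, where Hand1 had 2.08 (adjusted p = 0.0635). With 1 library left out the number called was 0 to 1 for the difference between lines, 0 to 2 in RING1B WT cells, 3 to 4 in Parental cells, 3 in RING1B I53S cells and 2 between RING1B I53S and RING1B WT cells with OHT. Leaving out 1 library gave 19 of the sign changes. In RING1B WT cells Cdx2 then ranged from −0.64 to 2.34, Eomes from −0.15 to 0.66, Tfap2a from −0.82 to 0.13 and Tfap2c from −0.58 to 0.30. Between the lines before OHT Cdx2 ranged from −3.85 to 0.22, Eomes from −0.044 to 0.76, Tfap2a from −0.012 to 0.86 and Tead4 from −0.27 to 0.11, and Eomes from −0.30 to 0.48 for the difference of effects. In Eed fl/fl cells Cdx2 ranged from −1.68 to 2.40, Esx1 from −0.073 to 1.75, Elf5 from −0.55 to 0.089 and Eomes from −0.27 to 0.22, and Eomes had 0.0089 with at least 10 counts in every library. The cause was not tested. Peak counts became 3 for H3K27me3 in Parental cells with OHT (gene without extension, or scores of 20 or more), and with scores of 20 or more 5 for H3K27me3 in Parental cells without OHT, 3 for H2AK119ub1 and 0 for RING1B in RING1B I53S cells.

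The labels do not say what a replicate number shares. Deviations of same-numbered libraries correlated at −0.0033 to 0.301 in the RING1B lines and at 0.459 in Eed fl/fl cells. Which Eed fl/fl clone a number stands for is not given in the labels. With a replicate block the number called was 3 in RING1B I53S, 2 in RING1B WT, 3 instead of 2 for RING1B I53S against RING1B WT with OHT, where Cdx2 was added (2.40, adjusted p = 0.0388), 0 before OHT, 1 for the difference and 0 in Eed fl/fl cells, and it changed no other call of these genes. In Eed fl/fl cells the block gave Tfap2c 0.60 (adjusted p = 0.00247) and Tead4 −0.59 (adjusted p = 0.0347), under the fold limit, where the highest adjusted p over all alternatives was 0.99994 for each. With OHT in both lines Cdx2 was also called with no filter (2.30, adjusted p = 0.0126), and Tfap2a with at least 10 counts in every library (1.52, adjusted p = 0.0437). Over all genes the block gave 140 higher and 21 lower calls in Eed fl/fl cells in place of 2 and 0, and 63 and 33 in place of 38 and 25 for the difference. DESeq2 gave 17 and 11 and 79 and 29 for these, no filter 466 and 17 in RING1B WT cells (main 244 and 7) and 165 and 33 for the difference, and at least 10 counts 645 and 75 in RING1B I53S cells (main 2323 and 188). Calls with 1 library left out ranged from 25 to 261 in RING1B WT cells, 23 to 262 in Eed fl/fl cells, 413 to 1050 for RING1B I53S against RING1B WT with OHT and 10 to 72 for the difference. Higher calls between the lines with OHT were 321 without RING1B WT +OHT replicate 1 and 714 without replicate 2 (main 1092), those for the difference 17 without RING1B I53S −OHT replicate 2, 7 without RING1B WT −OHT replicate 1 and 2 without +OHT replicate 1 (main 38), and those in RING1B WT cells 21 without −OHT replicate 2 and 28 without +OHT replicate 2.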

Other observations

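In the peak list labelled for RYBP whose treatment the labels do not give, 61 peaks were listed and 0 lay within 2.5 kb of any of the 8 genes. Elf5 held an H3K27me3 peak in Parental cells without OHT and, after OHT, in RING1B WT, RING1B I53S and RING1B I53S MTF2 KO cells. These peaks lay inside the gene, 3753 to 4169 bp from the nearest start site. Elf5 had 4 and 0 counts in the Parental RNA libraries without OHT. It had at most 6 counts in any RNA library of the RING1B WT and RING1B I53S lines (MTF2 KO cells have no RNA library).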
